A study of Mus musculus with 3 samples.

Results

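The enzymes that remove superoxide and peroxides, that make and use glutathione, and that answer to the transcription factor Nrf2 were examined as a set of 43 genes in adult murine retinal pigment epithelium (RPE). The genes were taken from a list of names chosen with earlier results of these data known, so the counts below carry no set test. All probes whose accession mapped to a listed gene were used. The genes had 59 probes, among 35078 mouse probes of the array, and stood among 15600 named genes. RPE sheets were isolated from C57BL/6 mice (C57BL/6J in the study's methods) aged 2.5–3 months, after the lens, cornea, iris epithelium and retina had been taken away, by trypsin treatment of the eyecups. The mice carried no transgene named in the labels and had no treatment, and the study had 3 samples of this 1 group, described as independent biological replicates, with no control group. Biotin-labelled complementary RNA of each sample was applied to 1 MEEBO slide, a mouse array of exon-based oligonucleotide probes, and read in 1 colour. The methods give a slightly younger age for the RPE isolation than the labels do.

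The RPE is the pigmented layer behind the photoreceptors, where strong light, a rich oxygen supply and the daily uptake of lipid-laden outer segments all produce oxidants. Superoxide dismutases turn superoxide into hydrogen peroxide, which catalase, the glutathione peroxidases and the peroxiredoxins reduce. Glutathione peroxidases and transferases draw on glutathione and peroxiredoxins mostly on thioredoxin, and both carriers are restored with NADPH by their reductases. Keap1 holds back Nrf2, which on oxidative stress enters the nucleus and activates genes of glutathione synthesis and detoxification.

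With no control group, the comparison that the design allows is between a probe and the negative control spots of its own array. Net intensity, the median foreground minus the median local background in scanner units, is given below as measured on replicates 1, 2 and 3 in that order. The arrays differed in brightness, with a mean net intensity over the mouse probes of 831, 476 and 316, and the 95th percentile of the 94 negative control spots lay at 132.6, 72.4 and 53.85. A fall in net intensity across the replicates is therefore shared by most probes, and arrays are compared below only on the normalised scale, the log2 intensity minus the threshold of the array set at that percentile. Each mean on this scale is ± SD over the 3 arrays. A probe was called when limma placed it above the threshold with an adjusted p under 0.05, and a gene was called when any of its probes was. The level of a probe also depends on its sequence, so levels were not compared between probes.

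The labelled tissue was checked first. Of 16 RPE markers 14 were called, among them Rpe65 at 7.88 ± 0.20 and Otx2 at 5.50 ± 0.28 above the threshold. Best1 at -0.74 ± 0.10 and Tyr at -0.39 ± 0.36 were not called. Markers of corneal and stratified epithelium were above the threshold for 1, 8 and 8 of 8 genes on replicates 1, 2 and 3, and rod markers for 5, 6 and 10 of 14. Of 7 erythrocyte markers 3 were above it on each array, with the globin Hba-a1 at 7.04 ± 0.13, Hbb-b2 at 3.52 ± 0.27 and Alas2 at 1.28 ± 0.32, and the part of red cells in the values of enzymes they also carry, such as Prdx2, Cat and Sod1, was not tested. By the corneal markers replicates 2 and 3 stood apart from replicate 1, and by the rod markers replicate 3 stood apart from the others. Each main count is also given for replicate 1 alone.

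Most of the antioxidant and glutathione genes gave a signal in RPE. A probe was called for 37 of 43 genes (86%), against 39.8% of all named genes. By probe, 48 of 59 (81.4%) were called, against 25.5% of all mouse probes, and all 48 lay above the threshold on each of the 3 arrays. An unadjusted p under 0.05 was found for 51 member probes (86.4%), against 27.3% of all mouse probes. The 6 genes without a called probe were Gpx3, Gpx7, Txn1, Gclc, Nfe2l2 and Msra.

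A gene with more probes has more chances to be called, so the count was also split by the number of probes. Among members with 1 probe 26 of 31 (83.9%) were called, against 33.8% of all such genes, and among members with several probes 11 of 12 (91.7%) were called, against 51.5%. When every probe of a gene had to be called, 33 members (76.7%) passed, against 26.2% of named genes. With the threshold at the 99th percentile of the negative controls 34 members (79.1%) were called, against 30.3%. With the intensity limit of 500 from the study's methods, applied here to the mean of the authors' normalized intensity over the arrays and with no spots removed for quality, 36 members (83.7%) passed, against 38.5%. On replicate 1 alone 40 members (93%) were above the threshold, against 45% of named genes, with no test.

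**Figure D1:**
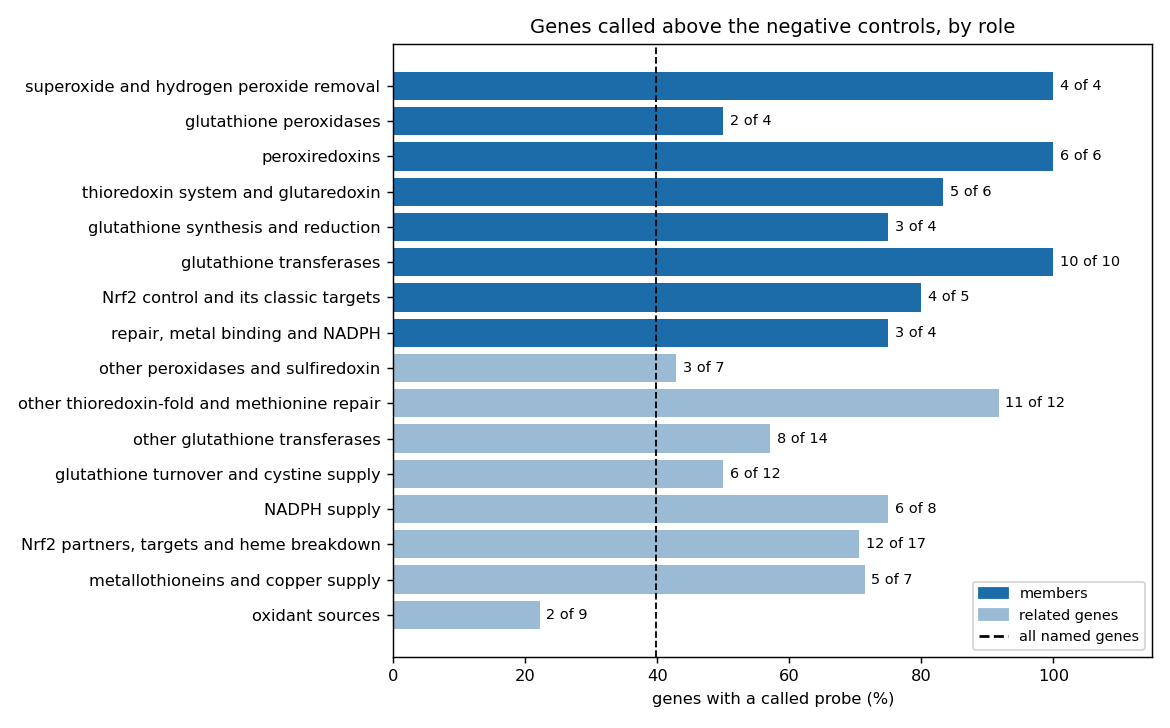
Share of genes with a called probe (%) by role, for the 43 member genes (dark bars) and for 86 related redox genes (light bars), with the number called and the number with a named probe beside each bar. The dashed line marks the 39.8% of all named genes. The oxidant sources, at 2 of 9 genes, are the group to its left.

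Superoxide and hydrogen peroxide removal was called throughout, with 4 of 4 genes. Sod1, the superoxide dismutase of the cytosol, had a net intensity of 31281, 17722 and 10427 and lay 7.05 ± 0.14 above the threshold (adjusted p = 7.71e-07). Sod2, the mitochondrial dismutase, had 23351, 12097 and 7030 and lay 6.55 ± 0.14 above it. Cat, the peroxisomal enzyme that splits hydrogen peroxide, had 9396, 5741 and 3123 and lay 5.36 ± 0.17 above it. For these genes every array was far above its own negative controls, and their values spread by less than 0.5 log2 units. Sod3, the secreted dismutase of the extracellular matrix, stood at the threshold. Its net intensity was 171, 89 and 73, the mean was 0.24 ± 0.07 and the adjusted p was 0.0414. It was above the threshold on each array but by at most 0.32, and its call was lost in 9 of 10 alternative settings, among them the removal of any single replicate (adjusted p = 0.0991 without replicate 1, 0.139 without replicate 2 and 0.144 without replicate 3).

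The glutathione peroxidases were split, with 2 of 4 called. Gpx4, the enzyme that reduces lipid hydroperoxides inside membranes and so holds back ferroptosis, had a net intensity of 48943, 32506 and 18494 and lay 7.82 ± 0.10 above the threshold. Gpx1, the main peroxidase of the cytosol, had 738, 395 and 249 and lay 1.80 ± 0.06 above it (adjusted p = 1.02e-05). Both were level across the arrays, with ranges of 0.19 and 0.11 log2 units. Gpx7, a peroxidase of the endoplasmic reticulum, had 89, 45 and 22, below the 95th percentile of the negative controls on every array, and its mean was -0.47 ± 0.25.

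Gpx3, the secreted peroxidase of plasma, was the member whose arrays differed most. Its net intensity was 191, 152 and 683, and its normalised values were 0.30, 0.72 and 3.17 above the threshold, so that replicate 3 stood apart from the others while the array as a whole was the dimmest. The mean of 1.4 ± 1.55 was not called (adjusted p = 0.111). Gpx3 was called in 7 of 10 alternative settings, but scaling by array medians and no normalization gave the same values and count separately. With the 99th percentile as threshold its mean fell to 0.57 while its adjusted p fell to 0.0103. The number of calls therefore does not measure how firm its signal was. Without replicate 1 its mean was 1.95 (adjusted p = 0.00645), and without replicate 3 it was 0.51 (adjusted p = 0.0347). Other genes were also higher on replicate 3. Rod markers summed to a normalised intensity of 18900 there, against 10200 and 10800 on replicates 1 and 2. Markers of stroma and fibroblasts summed to 4810, against 1650 and 1430, with 3, 3 and 5 of 8 genes above the threshold. The matrix proteoglycan Dcn, called with 1 of 4 probes, lay at 2.12, 1.47 and 4.17. Fbln1, called with 1 of 3, lay at 0.61, 1.48 and 3.42. Ogn went the other way at 1.12, 0.91 and 0.76, and Col1a1, Col3a1 and Lum stayed below the threshold on each array. Replicate 3 was also scanned on a later day than the other arrays, and its header names the image a redip, which the sources used here do not explain. The part of these cells or of the scan in the Gpx3 value was not tested, and in whole-sheet RNA fewer cells of a type and less RNA per cell cannot be told apart.

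All 6 peroxiredoxins were called. Prdx1, a cytosolic peroxiredoxin and Nrf2 target, had a net intensity of 14830, 10593 and 7853 and lay 6.28 ± 0.33 above the threshold. The 3 probes of Prdx2, its cytosolic relative, were all called at 6.76 ± 0.27, 3.03 ± 0.44 and 1.31 ± 0.19. The 3 probes of Prdx5, found in mitochondria and peroxisomes, were called at 6.60 ± 0.05, 5.73 ± 0.41 and 3.79 ± 0.05. Of the 2 probes of Prdx6, which reduces phospholipid hydroperoxides with glutathione, one lay 4.54 ± 0.36 above the threshold and the other, with a net intensity of 248, 106 and 100, lay 0.53 ± 0.16 above it. That weaker Prdx6 probe lost its call under 3 of the 10 alternative settings, while the stronger probe kept the gene called in each. Among these settings, scaling by array medians and no normalization gave the same values.

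Prdx3 and Prdx4 varied between the arrays in opposite directions. Prdx3, the peroxiredoxin of the mitochondrial matrix, had a net intensity of 1409, 491 and 128, or 2.56, 2.13 and 0.98 above the threshold on replicates 1, 2 and 3 (mean 1.89 ± 0.82, adjusted p = 0.00388). Its value was highest on replicate 1 and lowest on replicate 3, and its SD was higher than that of 98.8% of all called mouse probes. Prdx4, the peroxiredoxin of the endoplasmic reticulum, had a nearly level net intensity of 527, 481 and 440, which after normalisation became 1.33, 2.11 and 2.57 (mean 2.0 ± 0.63, adjusted p = 0.00107). It was lowest on replicate 1 and highest on replicate 3, which is also the order of the corneal epithelium markers, with summed intensities of 7960, 69000 and 130000. That order was found for 11 of 48 called member probes (22.9%), against 22.2% of all called mouse probes. The others were probes of Prdx1, Prdx2, Prdx6, Txnip, Gsta4, Gstm1, Gstm2, Keap1, Hmox1 and Mt2. For Prdx2 only the weakest probe had it, and the stronger probes were highest on replicate 1, at 7.06 and 3.53. For Keap1 only the strongest probe had it, and for Prdx6 only the stronger probe. The part of corneal cells in these values was not tested.

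**Figure D2:**
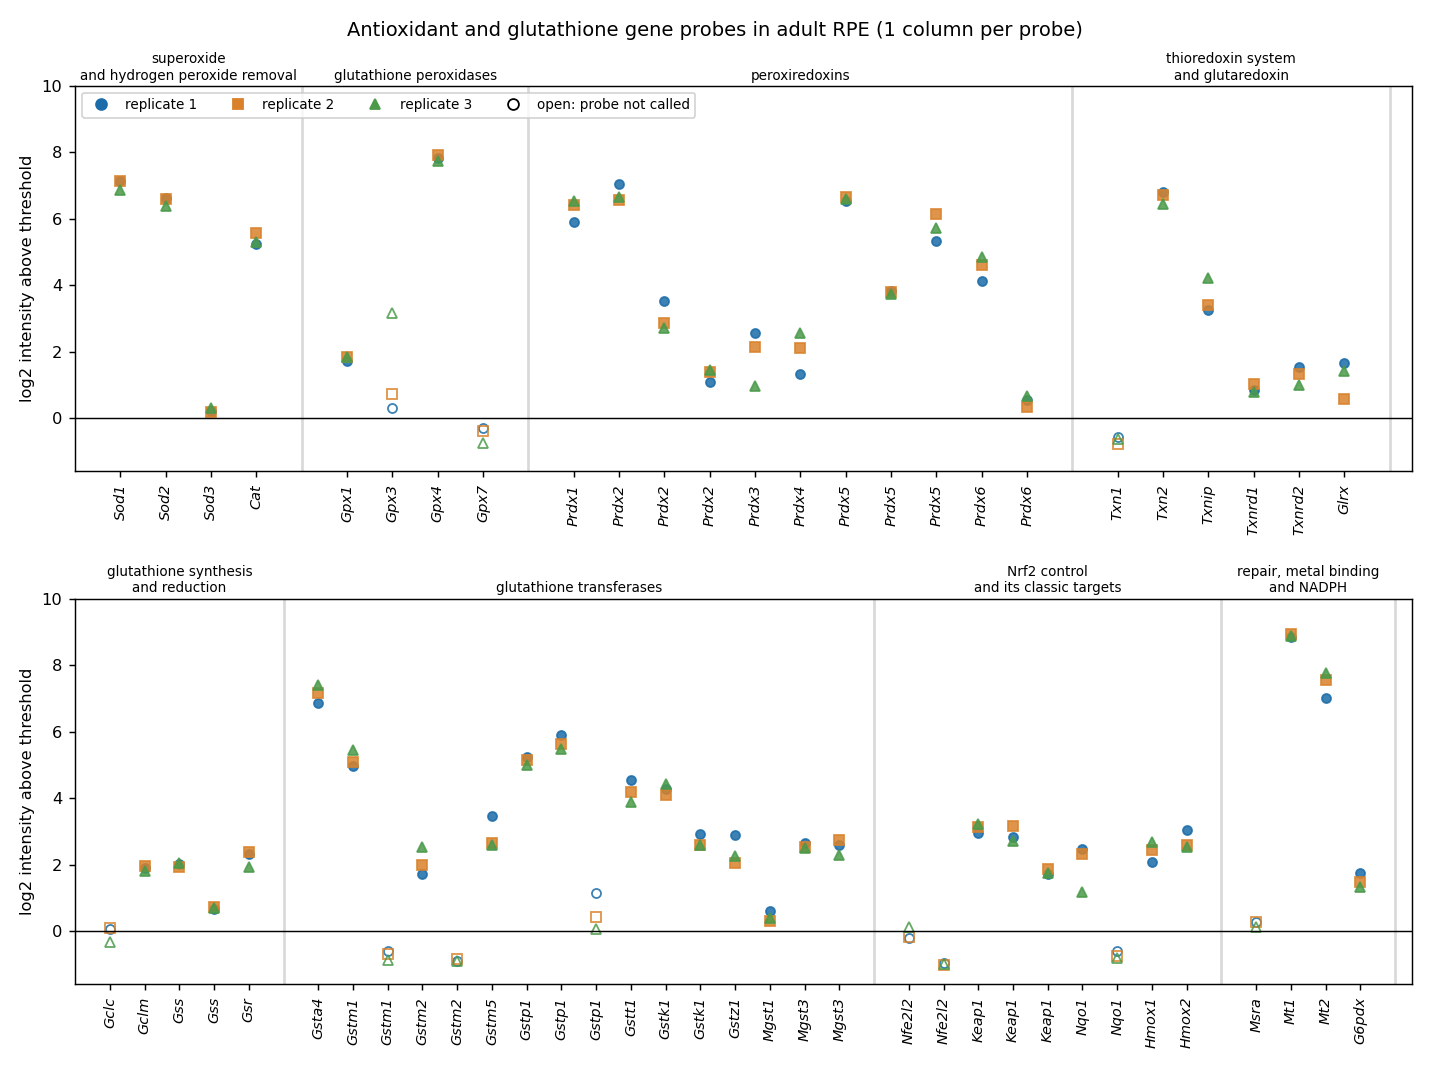
Log2 intensity above the array's threshold (y axis) for each of the 59 member probes (1 column per probe, grouped by role), with 1 symbol per replicate and open symbols for the 11 probes not called. The horizontal line at 0 is the 95th percentile of the negative control spots. Gpx3 shows the widest spread, from 0.30 on replicate 1 to 3.17 on replicate 3.

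In the thioredoxin system 5 of 6 genes were called, and the one not called was Txn1, thioredoxin itself. The Txn1 probe had a net intensity of 53, 22 and 26, below the 95th percentile of the negative controls on all 3 arrays, and its mean was -0.66 ± 0.10. It was called under none of the 10 alternative settings. Txn2, the mitochondrial thioredoxin, had 25743, 13006 and 7293 and lay 6.66 ± 0.20 above the threshold. Each form had 1 probe, and the RNA levels of the forms cannot be set against each other from these probes.

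Both reductases that restore thioredoxin were called. Txnrd1, which acts in the cytosol, had a net intensity of 338, 200 and 109 (0.89 ± 0.13, adjusted p = 3.61e-04), and Txnrd2, which acts in mitochondria, had 638, 260 and 130 (1.30 ± 0.28). Txnip, which binds thioredoxin, inhibits it and restrains glucose uptake, had 2377, 1235 and 1451, or 3.25, 3.40 and 4.22 above the threshold. Replicate 3 gave its highest value, and the mean was 3.62 ± 0.53 (adjusted p = 4.36e-05). Glrx, glutaredoxin, which removes glutathione from protein thiols, had 705, 132 and 180, or 1.67, 0.58 and 1.42. Here replicate 2 was the low array, and the mean of 1.22 ± 0.57 (adjusted p = 0.00605) lost its call with the 99th percentile as threshold, as did Txnrd1.

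Of the genes that make and restore glutathione 3 of 4 were called. For the rate-limiting enzyme the probe of 1 subunit, Gclm, was called and that of Gclc was not. Gclm, the modifier subunit of glutamate-cysteine ligase, had a net intensity of 837, 430 and 244 and lay 1.89 ± 0.08 above the threshold (adjusted p = 9.69e-06). Gclc, the catalytic subunit, had 143, 79 and 38, or 0.06, 0.08 and -0.32, so that it lay at the threshold on replicates 1 and 2 and under it on replicate 3 (mean -0.06 ± 0.23). With the 90th percentile as threshold Gclc was called (adjusted p = 0.00487). Each subunit had 1 probe, so the RNA levels of the subunits cannot be set against each other. Gss, glutathione synthetase, had a called probe at 1.99 ± 0.07 and another at 0.69 ± 0.03. The weaker Gss probe had the smallest SD of all called member probes, with values of 0.66, 0.72 and 0.69 on the 3 arrays. Gsr, the NADPH-dependent reductase of glutathione disulfide, had 1169, 592 and 270 and lay 2.21 ± 0.24 above the threshold.

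Glutathione transferases, which couple glutathione to electrophiles and lipid peroxidation products, were called for all 10 listed genes. Gsta4, the form with a preference for 4-hydroxynonenal, had a net intensity of 26202, 18369 and 15415 and lay 7.14 ± 0.27 above the threshold. Gstt1 had 5883, 2212 and 1129 (4.20 ± 0.32), Gstm5 had 2761, 718 and 446 (2.90 ± 0.48), and Gstz1, which also works in tyrosine breakdown, had 1806, 460 and 345 (2.40 ± 0.43). For Gstt1, Gstm5 and Gstz1 replicate 1 gave the highest normalised value, and for Gsta4 replicate 3. Gstk1, a mitochondrial and peroxisomal form, was called with both probes at 4.26 ± 0.16 and 2.70 ± 0.19. The membrane-bound Mgst3 was also called with both of its probes, at 2.57 ± 0.08 and 2.55 ± 0.24. Mgst1, the microsomal form, stood close to the threshold, with 265, 101 and 78 and a mean of 0.44 ± 0.15 (adjusted p = 0.0091). It lost its call in 3 of 10 alternative settings, of which scaling by array medians and no normalization gave the same values.

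For 4 of the 12 members with several probes the probes disagreed (33.3%), against 39.9% of all named genes with several probes. These were Gstm1, Gstm2 and Gstp1 among the transferases, and Nqo1. Gstm1 had a probe with a net intensity of 7807, 4142 and 3546 (5.16 ± 0.25) and another with 51, 27 and 18 (-0.71 ± 0.14). Gstm2 had a probe with 721, 444 and 423 (2.08 ± 0.41) and another with 22, 19 and 17 (-0.88 ± 0.04). In both genes the dark probe lay below the negative control percentile on every array. Gstp1, the pi-class form, had 2 called probes, with 14652, 6133 and 3665 (5.67 ± 0.20) and with 9477, 4372 and 2511 (5.12 ± 0.14). Its remaining probe had 445, 113 and 57, or 1.14, 0.42 and 0.05, a value that was above the threshold on each array but not called (adjusted p = 0.102), and it was called in 5 of 10 alternative settings, among them without replicate 3 (adjusted p = 0.03). The mu-class genes Gstm1, Gstm2 and Gstm5 all lie on chromosome 3 and are close relatives in sequence, and how far their transcripts bind to each other's probes was not tested.

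**Figure D3:**
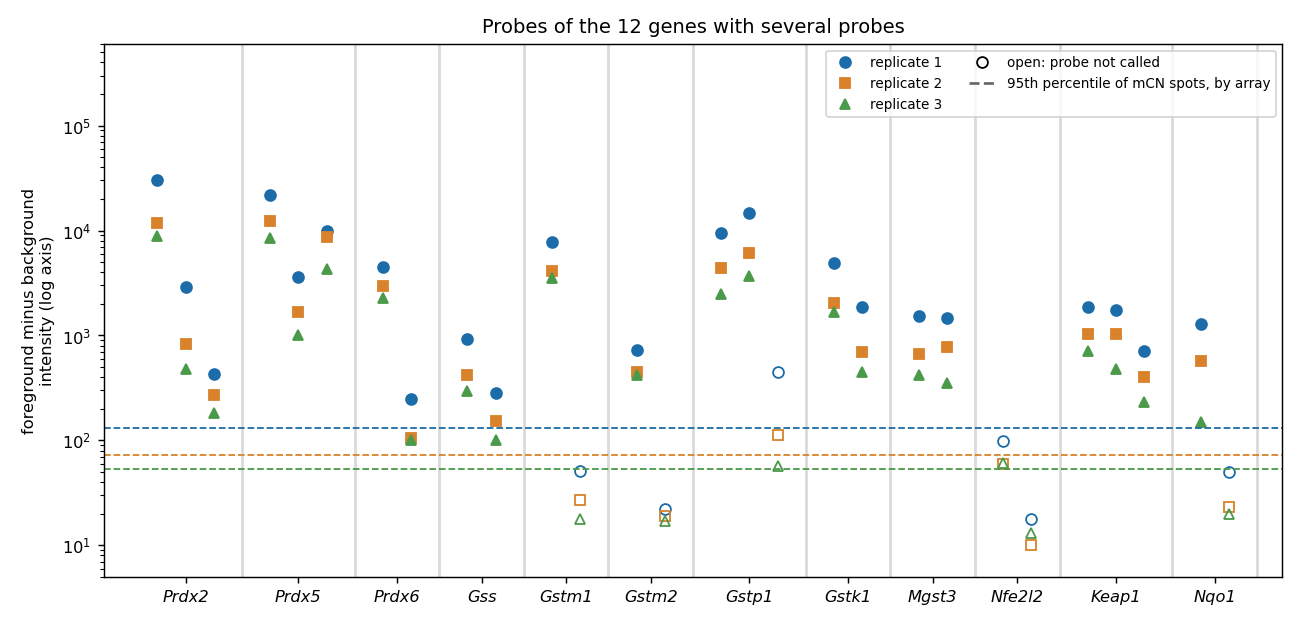
Net intensity (log axis) of every probe of the 12 member genes with several probes, by replicate, with open symbols for probes not called and dashed lines for the 95th percentile of the negative control spots (named mCN) of each array. Gstm1, Gstm2, Gstp1 and Nqo1 each combine called and uncalled probes, and both probes of Nfe2l2 lie under or near the lines.

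Of Nrf2, its inhibitor and 3 further genes of this group, 4 of 5 were called, and the one not called was Nrf2 itself. Nfe2l2, the gene of Nrf2, had a probe with a net intensity of 99, 59 and 61 (-0.09 ± 0.19) and another with 18, 10 and 13 (-1.0 ± 0.02). The first probe lay at -0.21, -0.17 and 0.13 on replicates 1, 2 and 3, around the threshold, and the other lay below it on each array. With the 90th percentile as threshold the first probe was called (adjusted p = 0.00292). Keap1, the adaptor that sends Nrf2 to degradation, was called with all 3 of its probes, at 3.10 ± 0.15, 2.90 ± 0.23 and 1.77 ± 0.09. Hmox1, the inducible heme oxygenase, had 980, 612 and 468 (2.39 ± 0.30), and Hmox2, the constitutive heme oxygenase, had 2037, 694 and 428 (2.73 ± 0.28). The values of Hmox1 were lowest on replicate 1 at 2.08 and those of Hmox2 highest there at 3.05.

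Nqo1, the quinone reductase often used as a readout of Nrf2, had a called probe with a net intensity of 1300, 567 and 150, or 2.46, 2.33 and 1.18 above the threshold (mean 1.99 ± 0.71, adjusted p = 0.00176). Its other probe had 50, 23 and 20 (-0.72 ± 0.10). The called Nqo1 probe was alike on replicates 1 and 2 and lower on replicate 3, as Prdx3 was, and both remained above the threshold on that array.

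Metal binding, NADPH supply and repair were called for 3 of 4 genes. Mt1, a metallothionein that binds zinc and copper and scavenges radicals, had a net intensity of 65477, 65485 and 62239, and lay 8.90 ± 0.05 above the threshold. Its spot was saturated on replicates 1 and 2, so that the level is a lower bound there. Mt2, the neighbouring metallothionein gene on chromosome 8, had 29182, 24002 and 18888 with no saturated spot and lay 7.44 ± 0.38 above it. How far the transcripts of Mt1 and Mt2 bind to each other's probes was not tested. G6pdx, glucose-6-phosphate dehydrogenase, the entry enzyme of the pentose phosphate pathway, had 738, 292 and 169 (1.51 ± 0.20). Msra, which repairs oxidised methionine, had 183, 96 and 61. It lay above the threshold on each array by 0.26, 0.26 and 0.13 and was not called (0.22 ± 0.08, adjusted p = 0.0607), except with the 90th percentile as threshold (adjusted p = 2.41e-04).

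The promoter windows of 4 members are shown because they hold letters of the elements through which metallothioneins answer to zinc and glutathione genes to Nrf2. Each window runs from 250 bases before to 50 bases after the RefSeq start of the gene in GRCm38.p6, 5′ to 3′ on the strand of the gene. Capitals in Mt1 (chr8:94178839-94179138, plus strand) and Mt2 (chr8:94172368-94172667, plus strand) mark the core of the metal response element, TGCACNC or TGCGCNC on either strand. Capitals in Gclm (chr3:122245307-122245606, plus strand) and Nfe2l2 (chr2:75704614-75704913, minus strand) mark the core of the antioxidant response element, TGACNNNGC on either strand. Mt1, Mt2 and Gclm were called, and Nfe2l2 was not.
Mt1: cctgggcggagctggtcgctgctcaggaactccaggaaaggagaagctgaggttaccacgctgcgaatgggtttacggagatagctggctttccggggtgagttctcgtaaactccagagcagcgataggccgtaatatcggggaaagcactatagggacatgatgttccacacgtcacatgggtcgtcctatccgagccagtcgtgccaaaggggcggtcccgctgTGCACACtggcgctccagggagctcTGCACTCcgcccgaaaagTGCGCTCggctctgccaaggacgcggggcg
Mt2: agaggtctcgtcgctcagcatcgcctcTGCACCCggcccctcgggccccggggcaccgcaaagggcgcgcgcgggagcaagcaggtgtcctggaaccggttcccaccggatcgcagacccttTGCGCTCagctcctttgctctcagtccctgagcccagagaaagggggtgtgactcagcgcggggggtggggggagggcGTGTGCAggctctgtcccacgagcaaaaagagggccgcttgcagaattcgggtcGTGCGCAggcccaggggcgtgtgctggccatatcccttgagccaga
Gclm: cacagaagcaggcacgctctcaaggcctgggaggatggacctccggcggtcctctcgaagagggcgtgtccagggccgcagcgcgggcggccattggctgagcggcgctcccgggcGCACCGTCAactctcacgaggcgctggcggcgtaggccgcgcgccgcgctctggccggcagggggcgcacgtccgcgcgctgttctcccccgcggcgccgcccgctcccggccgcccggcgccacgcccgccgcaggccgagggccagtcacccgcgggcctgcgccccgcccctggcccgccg
Nfe2l2: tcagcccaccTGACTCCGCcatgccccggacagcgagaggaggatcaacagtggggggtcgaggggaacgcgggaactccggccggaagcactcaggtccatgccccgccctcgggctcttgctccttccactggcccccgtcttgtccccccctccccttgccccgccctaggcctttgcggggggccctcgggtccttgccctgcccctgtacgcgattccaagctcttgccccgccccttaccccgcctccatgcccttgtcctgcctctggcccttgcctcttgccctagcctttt
Mt1 held 3 and Mt2 held 4 matches of the metal response core, and Mt2 held also 1 match of the antioxidant response core. In both genes some of the metal response matches lay after the RefSeq start, and bases outside the windows were not searched. The Gclm window also held 3 matches of the metal response core, which are not marked. A window was found for 36 of 43 members, and these had 47 windows. None was found for Gclc, Gsr, Gsta4, Hmox1, Msra, Prdx6 and Sod3, so these genes were not searched. The antioxidant response core occurred in 9 of 47 member windows (19.1%), against 12.4% of all 32851 windows. The metal response core occurred in 15 (31.9%) of 13 genes, against 25.7% of all windows. Windows of 1 gene can overlap, and for Glrx and Gstm1 the same match was counted in overlapping windows. Letters of the antioxidant core were found in the windows of G6pdx, Gclm, Gstm5, Mgst1, Mt2, Nfe2l2, Prdx1, Sod1 and Txnrd1. Letters of the metal core were in those of G6pdx, Gclm, Glrx, Gpx7, Gstk1, Gstm1, Gstm5, Gstt1, Mt1, Mt2, Prdx4, Txnip and Txnrd2. A match of letters is not by itself a binding site.

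Across the 3 arrays the called member probes varied about as much as other called probes, while Gpx3, which was not called, had an SD of 1.55. The median SD of the 48 called member probes was 0.20 log2 units, with a range of 0.03 to 0.82, against 0.22 for all called mouse probes. Values of 29 called member probes (60.4%) lay within 0.5 log2 units of each other over the arrays, against 61.2% of all called mouse probes, and those of 4 (8.33%) spread over at least 1 log2 unit, against 6.7%. The 5 called member probes with the largest SD were those of Prdx3, Nqo1, Prdx4, Glrx and Txnip. The smallest SDs belonged to the weaker Gss probe, to Mt1, which was saturated on 2 arrays, and to Prdx5, whose probe at 6.60 had values of 6.55, 6.65 and 6.60.

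By array, replicate 1 gave the lowest value for 18 of 48 called member probes (37.5%), against 39% of all called mouse probes, and replicate 3 for 21 (43.8%), against 42.7%. On each array 52 of 59 member probes (88.1%) lay above the threshold, against 30.1%, 31.7% and 31.3% of mouse probes on replicates 1, 2 and 3. So did 40 of 43 member genes (93%) on each array, against 45% of named genes on replicate 1. Of the corneal and stratified epithelium genes 1 of 8 lay above it on replicate 1 and 8 of 8 on replicates 2 and 3. The 40 member genes were not the same on each array, since Gclc was above the threshold on replicate 1 at 0.06 and below it on replicate 3 at -0.32, and Nfe2l2 was at -0.21 on replicate 1 and 0.13 on replicate 3. No liver gene was above the threshold on any array (0 of 6).

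**Figure D4:**
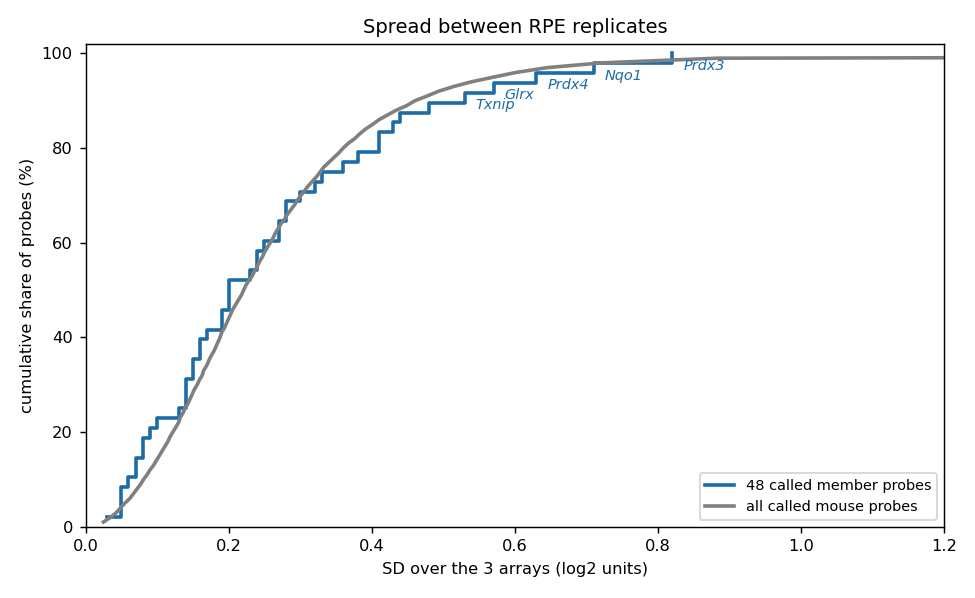
Cumulative share of probes (%, y axis) by SD over the 3 arrays in log2 units (x axis), for the 48 called member probes (blue steps) and all called mouse probes (grey line). The lines run close together around their medians of 0.20 and 0.22, and the 5 member probes with the largest SD are named.

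**Figure D5:**
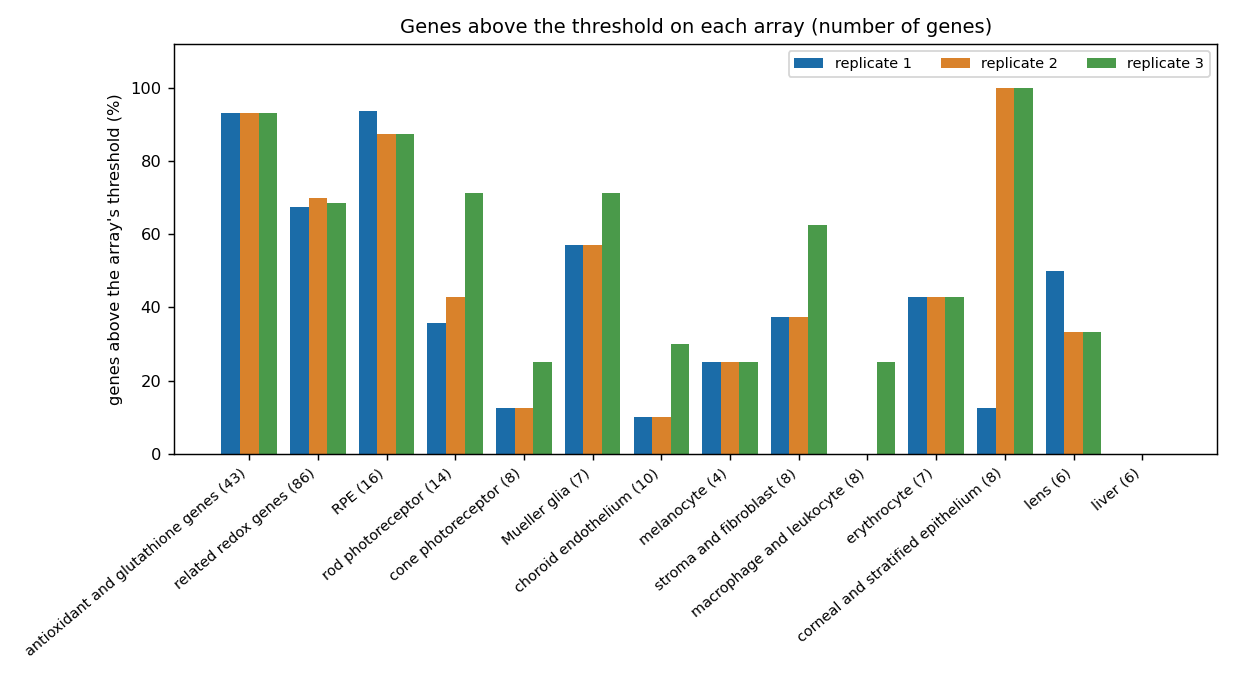
Share of the genes of each list above the array's threshold (%, y axis), by replicate, with the number of genes in parentheses. The antioxidant and glutathione genes stand at 93% on each array, while the 8 corneal and stratified epithelium genes differ between replicate 1 and the other arrays.

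Other genes of the same pathways had a called probe for 53 of 86 (61.6%), against 39.8% of all named genes. By role the shares were uneven. Of the called genes named below, Glrx3 and Srxn1 were each called with 1 of 3 probes. Glrx5, Atp7a, Sesn3 and Maob were each called with 1 of 2. Thioredoxin-fold and methionine repair genes were called for 11 of 12, with Nxn, a nucleoredoxin, at 5.70 ± 0.16, the monothiol glutaredoxins Glrx3 at 3.23 ± 0.08 and Glrx5 at 4.55 ± 0.22, and Msrb3 not called at -0.11 ± 0.36. NADPH suppliers were called for 6 of 8, with Taldo1 at 8.48 ± 0.31 (saturated on replicate 1), Idh1 at 5.10 ± 0.15 and Idh2 at 3.55 ± 0.01, while Mthfd1 at -0.56 ± 0.24 and Me2 at -0.19 ± 0.15 were not called. Metallothionein and copper genes were called for 5 of 7, with Atox1, the copper chaperone, at 6.35 ± 0.14, the zinc exporter Slc30a1 at 4.44 ± 0.18 and the copper pump Atp7a at 4.88 ± 0.28. Mtf1, the factor that binds the metal response element, was not called at -0.23 ± 0.11, nor was Mt3 at -0.10 ± 0.19.

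Partners and targets of Nrf2 were called for 12 of 17 genes. The Keap1 partners Cul3 at 3.98 ± 0.07 and Rbx1 at 6.15 ± 0.18, which form the ligase that marks Nrf2 for degradation, were both called with all of their probes, and Park7 lay at 7.83 ± 0.27. Ugdh at -1.05 ± 0.07 and Cbr3 at -0.42 ± 0.15 were not called. Glutathione turnover and cystine supply were called for 6 of 12. Glo1, which clears methylglyoxal, lay at 5.09 ± 0.04, Ggt1, which breaks down extracellular glutathione, at 4.90 ± 0.21, and Slc3a2, the heavy chain of the cystine exchanger and of other transporters, at 5.78 ± 0.17. Slc7a11, the light chain that carries cystine, was not called at -0.97 ± 0.24, nor was Ggt5 at -0.89 ± 0.13.

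Other glutathione transferases were called for 8 of 14 genes and other peroxidases for 3 of 7. Gstt3 lay at 5.24 ± 0.09, Gsta2 at 5.53 ± 0.36 and Gstt2 at 4.12 ± 0.37, while Gstm3 at -1.11 ± 0.11 and Gdap1 at -1.06 ± 0.12 were not called. Among the peroxidases and their helpers, Sesn3 lay at 5.94 ± 0.22, Gpx8 at 2.67 ± 0.26 and Srxn1, which restores overoxidised peroxiredoxins, at 0.45 ± 0.10, and Gpx5 at -1.02 ± 0.08 and Gpx6 at -0.98 ± 0.10 were not called. Genes that produce oxidants formed the group with the fewest calls, 2 of 9. These were Cyba, a subunit of the NADPH oxidases, at 2.63 ± 0.39 and the amine oxidase Maob at 1.12 ± 0.42. The oxidase genes Ncf1 at -1.10 ± 0.10 and Nox3 at -1.16 ± 0.13 had the lowest statistics of the uncalled.

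A few related genes followed the corneal epithelium signal between the arrays, and these were chosen after their values were seen. Gsto1, an omega-class transferase, lay at 0.23, 7.15 and 7.94 above the threshold on replicates 1, 2 and 3 (called at 5.11 ± 4.24), Gsta3 at 2.87, 4.93 and 5.68, and Chac1, which degrades glutathione, at -0.97, 1.74 and 4.38. Krt12 lay at -0.27, 6.99 and 8.21 on the same arrays. On replicate 1, where 1 of the 8 corneal and stratified epithelium genes was above the threshold, Gsto1 was near the threshold and Chac1 below it. The part of corneal cells in these values was not tested. No called member differed as much, the largest range being 1.58 log2 units for Prdx3, but Gpx3, which was not called, had a range of 2.88.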

How the data were processed

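RNA of 3 adult RPE samples was measured on 1 MEEBO slide each, and the samples form 1 group per the labels. The authors deposited 1 scanner export per array, from GenePix Pro 4.1.1.4, in which every spot has a linear, unnormalized intensity for its median foreground and its median local background. The deposited exports also hold a spot flag, a score of the scanner software. A further deposited table of normalized intensity from the authors covers 34288 mouse probes, and its values were the net intensity times 1 factor per array (2.17, 3.64 and 5.05). The sources used here do not name that normalization.

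Intensities were corrected in limma 3.58.1 (R 4.3.3) with normexp (offset 50, fitted on all 38880 spots), taken to log2 and quantile-normalized over mouse probes and negative controls. The negative controls were the 94 spots of the class mCN. The sources used here do not describe this class, and each call depends on it. The threshold was their 95th percentile (log2 7.15, 7.05 and 7.08), and 30.1%, 31.7% and 31.3% of mouse probes lay above it. Each probe was tested with lmFit and eBayes, one-sided, and p was adjusted by Benjamini-Hochberg across the 35078 mouse probes, and the steps were tested on simulated data. The number of arrays limits the precision. A p-value reflects the spread of these 3 samples only.

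Probes were named by accession through a RefSeq gene table of GRCm38.p6, used for names and promoters. Of the mouse probes 23026 had 1 gene name and 12052 had none. Flagged spots were kept, and 3 member probes had one. The member genes, the 94 related genes (86 with a named probe) and the marker lists were chosen with earlier results of these data known, so counts and percentages carry no set test. All members were named, and of each related list up to 3 called genes with the largest and up to 2 uncalled genes with the smallest limma statistic. For a gene with several probes the value is that of the probe with the largest statistic unless said otherwise. Alternatives changed the threshold, background correction, normalization, flags, filter, rule for several probes and replicates.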

Additional observations from a re-analysis of the deposited data

How the results depend on the processing

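The number of members with a called probe was 37 and stayed between 33 and 41 in every alternative run, with 36 to 37 when 1 replicate was left out. Member probes called ranged from 43 to 53 around 48, with 47 to 49 when 1 replicate was left out, and related genes from 39 to 65 around 53, with 49 to 56. Of the called members 33 were called under all 10 alternatives that refitted the test. Median scaling and no normalization between arrays gave the same values, because the threshold of each array is subtracted after either. Each tally out of 10 therefore counts this outcome under both names. Replicate 1 taken alone was an alternative added after seeing the data. It gave 40 members (93%) and 58 related genes (67.4%) above the threshold, against 45% of named genes, with no test. By probe it gave 52 member probes (88.1%), against 30.1% of mouse probes.

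With the 90th percentile as threshold the mean of Gpx7 became 0.22, of Txn1 0.03, of Gclc 0.63 and of the stronger Nfe2l2 probe 0.60, and Gclc, Nfe2l2 and Msra became called while Gpx7 and Txn1 did not. With the 99th percentile Sod3 became -0.59, the weaker Prdx6 probe -0.30, the weaker Gss probe -0.13, the third Gstp1 probe -0.29, Mgst1 -0.39 and Msra -0.61. Without replicate 3 Gclc became 0.07. The median SD of called member probes was 0.32 with the 99th percentile and 0.41 with median scaling or no normalization, against 0.20, and the cause was not tested.

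The members near the threshold (Sod3, Gclc, Msra, Mgst1, Nfe2l2) had a signal close to that of the negative controls, and the number of arrays limits the precision of their calls. The part of the probe sequence in these values was not tested. No paired analysis was possible because the study has 1 group.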
